A study of Schizocardium californicum with 12 samples.

Results

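The genes described here encode the nuclear part of the mitochondrial respiratory chain of the hemichordate *Schizocardium californicum*, an acorn worm that develops through a swimming larva and a burrowing juvenile. They were chosen by name alone: gene names of NADH dehydrogenase, succinate dehydrogenase, cytochrome bc1, cytochrome c oxidase and ATP synthase subunits (Ndu, Sdh, Qcr, Ucri, Cy1, Cox, Cx and Atp names) with at least 60 reads over all libraries. Of 27463 genes, 78 carried such a name, and 75 had enough reads. Nduf5-2, Nduf5-4 and Nduf5-5 were left out, with 12, 27 and 3 reads in all. No gene named Atif1, Coa3, Scaf1 or Atp5e was matched.

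Whole animals were compared in 4 groups of 3 RNA-seq libraries: control larvae without irradiation, larvae 3 days after 120 Gy of X-rays, control juveniles without irradiation, and juveniles 3 days after 200 Gy of X-rays. Every library came from a pool of 5 animals, and the study states that the replicates were independent. Irradiation was used in the study to remove dividing cells and so to find the transcripts that they hold. Larvae and juveniles were given different doses, and effects of stage and of dose cannot be told apart.

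The libraries held between 7675726 and 26974509 reads on genes, with no batch named in the sources used here. Of 19 tested markers of dividing cells, 14 fell in irradiated larvae and 15 in irradiated juveniles, among them Mcm2, Aspm-1 and Cdk1-2 in both. Those are 73.7% and 78.9% of the markers, where 2.05% and 11.1% of all genes tested were called lower. Several markers, such as Nusap, Ince, Hmmr and Anln, were already listed by the study as lower after irradiation in these same libraries. The fall of such markers is no separate check of the labels. Mcm2, Mcm5, Cdk1-2, Ccna-1, Ccnb-2 and Ccnb3-1 were not so listed and fell in both stages, which matches the labels of irradiation. Pcna-1, Mcm7, Ccna2 and Ccna-2 were called in neither, and Cdk1-1 fell in juveniles and was not called in larvae. Intron reads made up 4.42% to 6.29% of a library, and control larvae replicate 3, at 4.67%, was lowest among the larvae. The RNA came from whole animals, so fewer cells of a type and less RNA per cell cannot be told apart.

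The respiratory chain sits in the inner mitochondrial membrane. Complex I takes electrons from NADH and complex II takes them from succinate. Both pass them through ubiquinone to complex III, cytochrome c and complex IV, which reduces oxygen to water. Complexes I, III and IV pump protons across the membrane, and ATP synthase (complex V) uses the returning protons to make ATP. Most subunits are encoded in the nucleus and imported, while a few core subunits come from mitochondrial DNA, and dedicated assembly factors build the complexes without being part of them. Tissues with a high demand for ATP, such as muscle and ciliated epithelia, are known to hold much of this machinery.

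The 75 genes comprised 63 subunits and 12 assembly factors, and all 75 passed edgeR's filter on low counts. Complex I held 35 of them, complex II 2, complex III 6, complex IV 10 and complex V 10. Roles are those of the mammalian proteins of the same names. Ndua4, named for complex I, was counted with complex IV, where it has been placed in mammals. Counted as assembly factors were 7 Nduf genes for complex I, 4 Sdhf genes for complex II and Atp5s. Atp5s, known in mammals as coupling factor B, was grouped with them by name, and a role in assembly was not checked. The 75 genes are spread over 21 chromosome-scale sequences of the v2.0 genome, with 1 to 16 exons (median 5) and exon lengths of 219 to 3585 bases (median 1007). For 74 of 75 genes at least 95% of the reads were placed uniquely, and the exception was the assembly factor Nduf6-2 at 78.9%. Intron reads exceeded 20% of the reads of 5 genes. They made up 67.0% for Ndub1, 67.1% for Nduf5-1, 28.4% for Sdhf1, 23.4% for Nduf6-2 and 21.0% for Atp5h. Their totals are the least certain measure of spliced mRNA.

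Levels between genes were compared in TPM, a measure of transcripts per library of fixed size, which the authors' software scaled by exon length. The most abundant members in control larvae were subunits of ATP synthase. At5g3-1, the membrane ring subunit c, had 872 ± 75 TPM (mean ± SD, n = 3). Atpb and Atpa, the beta and alpha subunits of its catalytic head, had 821 ± 67.6 and 802 ± 99.3 TPM. These 3 levels lay within each other's spread, so their order is not resolved. Median TPM of the 35 complex I genes in the control larval libraries lay between 137 and 157, against 275 to 321 for complex IV and 310 to 382 for complex V. The lowest subunit gene in every group was Ndub3-1, a complex I accessory subunit with 6.92 ± 2.25 TPM in control larvae. A second gene named for the same subunit, Ndub3-2, held 8272 reads over the 12 libraries, against 1729 for Ndub3-1. At5g3-1, Atpb and Atpa were also the leading 3 genes in control juveniles (764 ± 50.7, 713 ± 24.6 and 726 ± 53.8 TPM) and in both irradiated groups. The assembly factors were mostly scarce, with medians of 6.23 to 11.8 TPM in the control libraries of both stages. The highest of them, Sdhf4, had a mean of 246 TPM in control larvae and 198 TPM in control juveniles.

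All 75 genes together took 1.27%, 1.43% and 1.35% of the TPM of all genes in control larvae and 1.85%, 1.69% and 1.86% in irradiated larvae. In control juveniles they took 1.45%, 1.44% and 1.47%, and in irradiated juveniles 2.30%, 2.37% and 2.09%. The irradiated libraries of each stage lay above all of that stage's controls. The control ranges of larvae and juveniles did not overlap but nearly touched. This share is a description, because a share also moves when other genes change and because a few abundant genes dominate it.

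**Figure D1:**
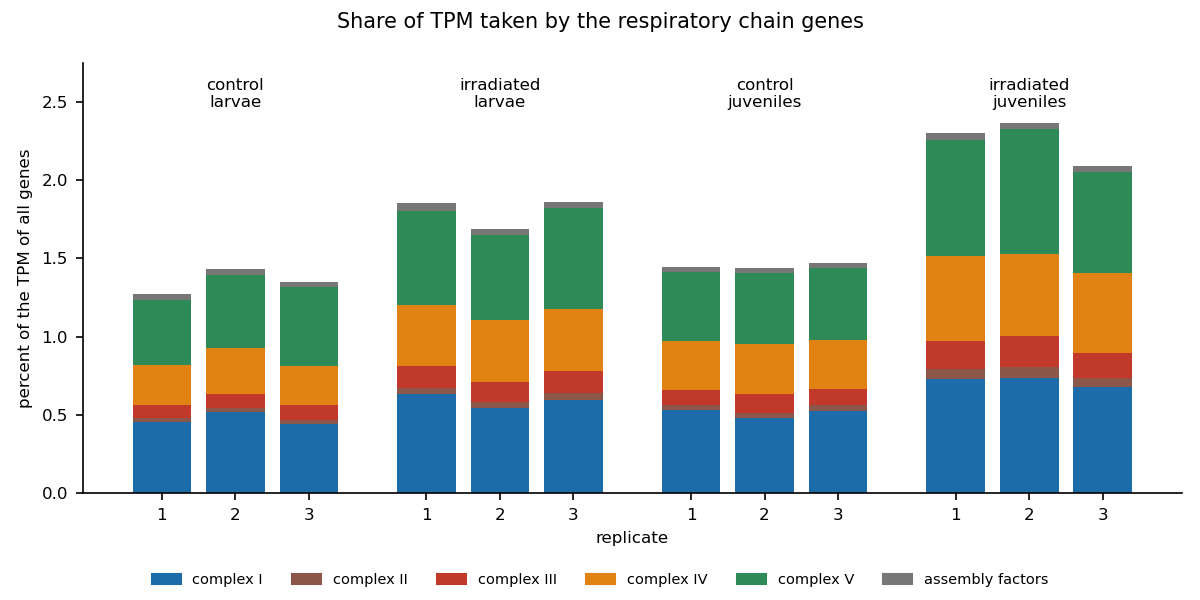
Percent of the TPM of all genes (vertical axis) taken by the respiratory chain genes in each of the 12 libraries, stacked by complex, with the replicate number on the horizontal axis. Irradiated larvae stand at 1.69% to 1.86% against 1.27% to 1.43% in control larvae, and irradiated juveniles at 2.09% to 2.37% against 1.44% to 1.47%. Complexes I, IV and V make up most of each bar.

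The first comparison asked how the respiratory chain genes differed between irradiated and control juveniles. Of the 75 genes, 56 rose and none fell at an adjusted p of 0.05 or less (edgeR's quasi-likelihood test, Benjamini-Hochberg adjustment over 20780 genes), while 21.9% of all genes were called, 10.8% higher and 11.1% lower. No gene was lower at an unadjusted p of 0.05 or less, nor called lower by DESeq2 or limma voom. The subunits account for 53 of the 56, out of 63. Their median log2 fold change was 0.66, and that of all 75 genes 0.64, against −0.04 for all genes tested. For 63 of the 75 genes all 3 irradiated libraries lay above all 3 controls, which held for 19.5% of all genes tested. With 3 libraries against 3, an exact permutation test of a single gene cannot go below p = 0.1, so the calls rest on the spread that edgeR estimates across genes.

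Complex III, which passes electrons from ubiquinol to cytochrome c, had the largest median log2 fold change of the 5 complexes, 0.99, with 5 of its 6 genes called higher. Qcr6-1 (SCA00395, on chr8A_Sc2), the hinge protein near cytochrome c1, had 555, 615 and 519 normalized counts in the control juveniles and 1548, 1342 and 1343 in the irradiated ones. Every irradiated library held more than 2 times the highest control. The rise was 2.51-fold (log2 fold change 1.33 ± 0.12, SE, adjusted p = 4.43e-05). Qcr2, a core protein that stabilizes the complex, went from 1319, 1590.0 and 1225 to 3147, 2906 and 2483 normalized counts, 2.07-fold higher (1.05 ± 0.13, adjusted p = 0.000204). The groups did not overlap. Cy1, cytochrome c1, had 947, 1449.9 and 987 normalized counts in controls and 2510.1, 2594 and 1909 after irradiation, a rise of 2.07-fold (1.05 ± 0.18, adjusted p = 0.00162). Control replicate 2 was the highest control for Cy1 and for Ucri, yet stayed below every irradiated library. Ucri, the Rieske iron-sulfur protein, rose 1.86-fold from 1240.0, 1684 and 1282 to 2995, 2641 and 2176 normalized counts (0.89 ± 0.15, adjusted p = 0.00109), and Qcr7-1 rose by 0.94 on the log2 scale. Qcr8, the most abundant gene of the complex, was the one not called: it had 1064, 1498 and 1278 normalized counts in controls and 1818, 1915 and 1533 after irradiation, without overlap, and a log2 fold change of 0.46 ± 0.17 (adjusted p = 0.0725). Without control replicate 2, Qcr8 was called (adjusted p = 0.0432).

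Complex IV, cytochrome c oxidase, is the oxygen-consuming end of the chain, and 9 of its 10 genes rose, with a median log2 fold change of 0.93. Cox5b, a zinc-binding subunit, had 905, 1129 and 887 normalized counts in controls and 2202, 1741 and 1993 in irradiated juveniles, 2.03-fold higher (1.02 ± 0.18, adjusted p = 0.00186). Cox41, subunit 4, where ATP binds in the mammalian enzyme, rose 1.91-fold from 2719.9, 3468 and 2555 to 6268, 5567 and 4834 normalized counts (0.93 ± 0.14, adjusted p = 0.000712). Neither gene overlapped between the groups. Cox5a-1 went from 1895, 2224 and 1786 to 4151, 3729 and 3369.5 normalized counts and rose by nearly the same factor, 1.91-fold (0.93 ± 0.12, adjusted p = 0.000281). Cx7a2, the most abundant complex IV gene by RPKM, rose less, 1.5-fold, from 2677, 2847 and 2588 to 4221, 3961 and 3946 normalized counts (0.58 ± 0.14, adjusted p = 0.0108). The other genes called, Cox6a, Cox7c, Cox7r, Cx6b1 and Cx6c1-1, had log2 fold changes of 0.64, 0.98, 0.95, 0.96 and 0.84. Ndua4 was not called. It had 5619, 4364 and 5979 normalized counts in controls and 8161, 5856 and 9144 after irradiation, with irradiated replicate 2 inside the control range (0.54 ± 0.20, adjusted p = 0.0761).

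Complex II links the chain to the citric acid cycle, and both of its genes chosen here rose in juveniles. Sdhb-1, its iron-sulfur subunit, had 1982, 2224 and 2079 normalized counts in the controls and 4272, 4050.4 and 3443 in the irradiated juveniles, a rise of 1.87-fold (0.90 ± 0.13, adjusted p = 0.000642). Sdha, the flavoprotein that oxidizes succinate, went from 3539.6, 4072 and 4049.9 to 6912, 7119.5 and 5448 normalized counts, 1.67-fold higher (0.74 ± 0.12, adjusted p = 0.00122). Irradiated replicate 3 was the lowest irradiated library for both genes and still exceeded every control.

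In complex V 9 of 10 genes rose, with a median log2 fold change of 0.72. Atpg-1, the rotating central stalk, rose 1.89-fold from 1566, 1836 and 1753 to 3499, 3374 and 2857 normalized counts (0.92 ± 0.13, adjusted p = 0.000492). The catalytic Atpb went from 10416, 11929 and 11171 to 18907, 18604 and 14255 normalized counts, 1.54-fold higher (0.63 ± 0.14, adjusted p = 0.00579). Its partner Atpa went from 7985, 10147 and 8946 to 15607, 15747 and 12160.0, 1.61-fold higher (0.68 ± 0.14, adjusted p = 0.00486). For all 3 genes the irradiated libraries lay above the controls, with replicate 3 lowest among them. The ring subunit At5g3-1 rose 1.67-fold, from 5285, 6508 and 5844 to 10622, 10601 and 8181 normalized counts (0.74 ± 0.14, adjusted p = 0.00309). Atpd-1, Atpo, Atpk-1, Atp5j-1 and Atp5l, parts of the stalks and the membrane sector, were called with log2 fold changes of 0.67 to 0.88. Atp5h, the stator subunit d, was not called (0.50 ± 0.20, adjusted p = 0.0867), although its irradiated libraries lay above its controls.

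Complex I is the largest complex, and 28 of its 35 genes rose in irradiated juveniles, with a median log2 fold change of 0.55. The 28 accessory subunits, which surround the catalytic core, had 24 calls and a median of 0.60. The 7 nuclear-encoded core subunits, which carry the flavin and the iron-sulfur clusters or line the quinone site, had 4 calls and a median of 0.39. Ndub7-1, an accessory subunit of the membrane arm, had 708, 450.1 and 684 normalized counts in controls and 1448, 1219 and 1394 in irradiated juveniles. It rose 2.2-fold (1.14 ± 0.22, adjusted p = 0.0028), the largest log2 fold change of the complex, and no control reached the lowest irradiated library. Ndua5, the complex I gene with the highest mean RPKM over the 12 libraries though not among the juveniles alone, rose 1.59-fold from 579.8, 563.8 and 537 to 995, 835 and 844 normalized counts (0.67 ± 0.12, adjusted p = 0.00219). Among the core subunits, Nduv1-1, which binds NADH, rose 1.46-fold from 1943, 1984 and 2147 to 3259, 2951 and 2674 (0.55 ± 0.12, adjusted p = 0.00534). Ndus2-1, at the quinone site, rose 1.43-fold from 2016, 2040.1 and 2049.7 to 3269, 2948 and 2512 (0.52 ± 0.12, adjusted p = 0.0101). The Ndus2-1 call was lost without irradiated replicate 1 (adjusted p = 0.0543).

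Ndus1, the largest core subunit, stood apart from these, with 4082, 4487 and 4380.4 normalized counts in controls and 5353, 5167 and 4385 in irradiated juveniles. Irradiated replicate 3 fell inside the control range, and the log2 fold change was 0.20 ± 0.14 (95% interval -0.11 to 0.51, adjusted p = 0.345). Ndus3, a core subunit of the peripheral arm, had 2052, 1970.0 and 2136 normalized counts in controls and 2232, 2005 and 1837 after irradiation, which overlapped (-0.02 ± 0.12, 95% interval -0.27 to 0.23). It was the single member of the 75 whose log2 fold change was below 0, where 46.9% of all genes tested lay above 0. The other complex I genes not called were Ndus7-1, Ndua9, Nduab-1, Ndub1 and Ndub3-1, with log2 fold changes of 0.25, 0.29, 0.31, 0.46 and 0.48.

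Of the 12 assembly factors 3 rose in irradiated juveniles, where 10.8% of all genes were called higher, and their median log2 fold change was 0.35. Their difference from the subunits was not tested. Nduf7, a methyltransferase that acts on a core subunit of complex I in mammals, had 15.6, 10.9 and 17.2 normalized counts in controls and 28, 37.9 and 35.2 after irradiation. It rose 2.25-fold (1.17 ± 0.29, adjusted p = 0.013) without overlap, though from few reads, and with all libraries thinned to the smallest total its adjusted p was 0.0571. Nduf3 rose 2.01-fold from 15.6, 17.1 and 24.7 to 42, 47.7 and 31 (1.01 ± 0.30, adjusted p = 0.0296). Sdhf4, the most abundant of them, went from 538, 487 and 482 to 840.3, 623 and 616 normalized counts (0.46 ± 0.14, adjusted p = 0.0352). Its call was lost without any 1 of control replicates 1, 2 and 3 or irradiated replicate 1 (adjusted p = 0.0584, 0.0835, 0.104 and 0.174). These genes had a median of 713 reads over the 12 libraries, against 14259 for complex I and 30278 for complex V, and the part of read depth in their counts of calls was not tested.

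**Figure D2:**
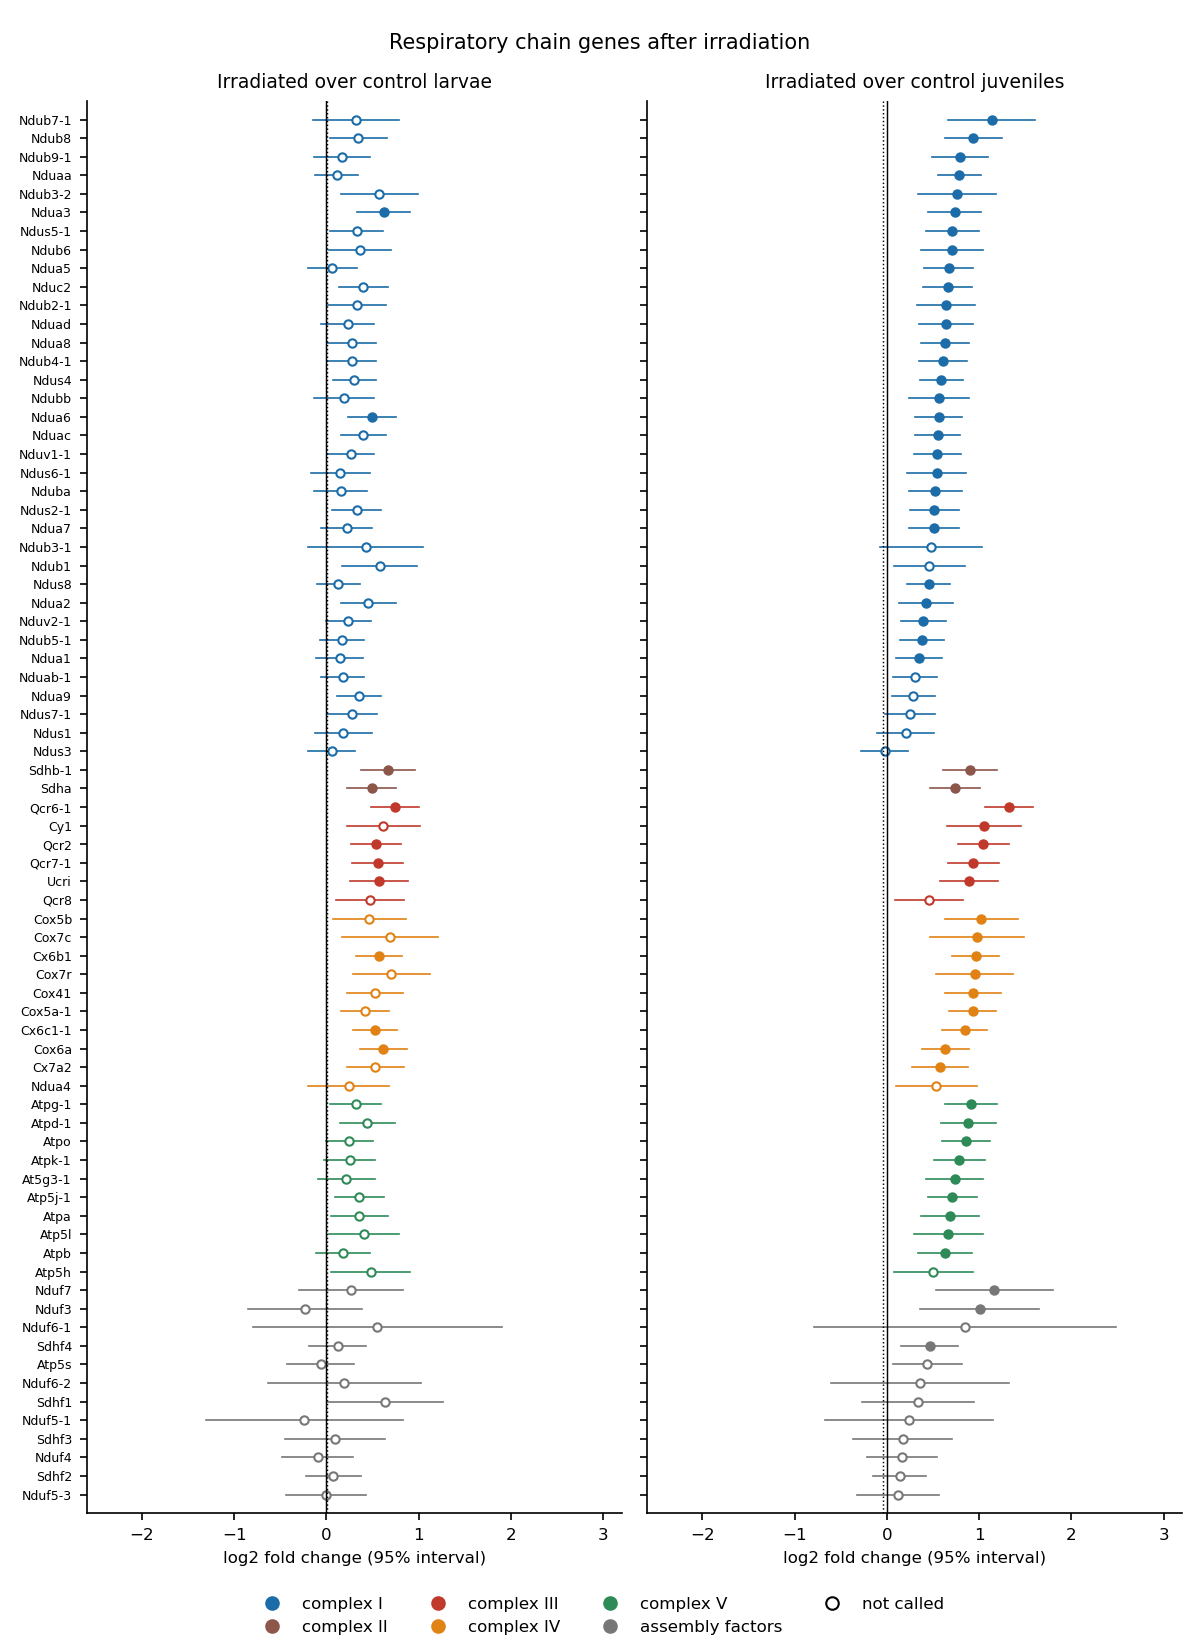
Log2 fold change of irradiated over control animals (horizontal axis) with its 95% interval for each of the 75 genes, in larvae at left and juveniles at right, ordered by complex and by the juvenile value. Filled points passed the threshold of an adjusted p of 0.05, open points did not, and the dotted line is the median of all genes tested. In juveniles 56 points are filled and Ndus3 is the one below 0, while in larvae 11 are filled.

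The 56 calls in juveniles were not set by a single library, since 42 to 57 of the 75 genes were called when each of the 6 juvenile libraries was left out in turn. The lowest count came without irradiated replicate 1. As a mean over the 63 subunits, log2 normalized counts lay 0.80, 0.67 and 0.54 above the control mean in irradiated replicates 1, 2 and 3, while the control libraries lay within −0.03 to 0.04. Irradiated replicate 3 was the lowest of the 3 in every complex.

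Irradiated larvae were compared with control larvae in the same way. Of the 75 genes, 11 rose and none fell (edgeR's quasi-likelihood test, adjusted p of 0.05 or less), where 3.92% of all genes were called, 1.87% higher and 2.05% lower. Scaled by library totals only, the calls over all genes split 590 higher and 366 lower, against 389 and 425 here. No gene was lower at an unadjusted p of 0.05 or less, nor called lower by DESeq2 or limma voom, and 42 genes were at or under that unadjusted p. All 63 subunits had a log2 fold change above 0, from 0.06 to 0.74, as did 51% of all genes tested. The median of the 75 was 0.33, against 0.01 for all genes. For 41 of the 75 the 3 irradiated libraries lay above all controls, which held for 12.6% of all genes tested.

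The called genes lay in complexes I to IV. In complex III 4 of 6 genes rose. Qcr6-1 had 467, 487 and 462 normalized counts in control larvae and 752, 725 and 889 in irradiated larvae, 1.67-fold higher (0.74 ± 0.12, SE, adjusted p = 0.00704), with no overlap. It was the member with the largest larval log2 fold change, as it was in juveniles. Ucri, the Rieske protein, had 1518, 1488 and 1527 normalized counts in controls and 2238, 2408 and 2093 after irradiation, 1.49-fold higher (0.57 ± 0.15, adjusted p = 0.0472). The controls were close together and the irradiated libraries well above. Qcr2 and Qcr7-1 were also called (log2 fold changes 0.53 and 0.55). Cy1 had 867, 1104 and 1215 normalized counts in controls and 1563, 1619 and 1707 in irradiated larvae, and was not called (log2 fold change 0.62 ± 0.18, adjusted p = 0.0777). Qcr8 was not called either, at 552, 465 and 693 in controls and 725, 755 and 894 after irradiation (0.47 ± 0.17, adjusted p = 0.145).

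Both complex II genes rose in larvae. Sdhb-1 had 1214, 1063 and 1371 normalized counts in controls and 1912, 1724 and 2154 in irradiated larvae, 1.59-fold higher (0.67 ± 0.13, adjusted p = 0.0183), and Sdha had a log2 fold change of 0.49 ± 0.12 (adjusted p = 0.0435). Neither overlapped between the groups. In complex IV 3 of 10 rose. Cox6a, a small subunit near the outer face of the enzyme, went from 1701, 1675 and 1809.8 to 2678, 2712 and 2569.7 normalized counts, 1.53-fold higher (0.62 ± 0.12, adjusted p = 0.0138). Cx6b1, which joins the monomers of the mammalian dimer, went from 1148, 1279.6 and 1178 to 1708, 1739.6 and 1899, 1.48-fold higher (0.57 ± 0.12, adjusted p = 0.0201). Cx6c1-1 was called as well (0.53). Cox41, Cox5a-1 and Cx7a2 had log2 fold changes of 0.52, 0.42 and 0.53 without being called (adjusted p = 0.0561, 0.0657 and 0.0541). All 3 were called by DESeq2 (adjusted p = 0.0214, 0.0277 and 0.0141) and with library totals only (0.03, 0.0364 and 0.0298), and their irradiated libraries lay above all controls.

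In complex I 2 of 35 genes rose, Ndua3 and Ndua6, and the median log2 fold change was 0.28. Ndua3, an accessory subunit of the membrane arm, had 264, 289 and 344 normalized counts in controls and 443, 442 and 501 in irradiated larvae, 1.54-fold higher (0.62 ± 0.13, adjusted p = 0.0229). The core subunits Nduv1-1, Ndus2-1 and Ndus1 had log2 fold changes of 0.26, 0.33 and 0.18, none called. Control larvae replicate 3 held 4373 normalized counts of Ndus1, above irradiated replicates 1 and 2 (4106 and 3643). Ndua5 was close to 0 (0.06 ± 0.12), with 619.9, 594 and 490.3 normalized counts in controls and 628, 589.9 and 560.2 after irradiation, and its 95% interval ran from -0.20 to 0.33.

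In complex V none of 10 genes was called in larvae. Atpa had 8273, 8341 and 10550.0 normalized counts in control larvae and 11470.0, 10735 and 12544 in irradiated larvae (0.36 ± 0.14, adjusted p = 0.19), without overlap. Atpb had 10898, 10255 and 13119 in controls and 12988, 11934 and 13858 after irradiation, with control replicate 3 above 2 of the irradiated libraries (0.18 ± 0.14, 95% interval -0.11 to 0.47). At5g3-1 overlapped as well (0.21 ± 0.14), while Atpg-1 did not (0.32 ± 0.13, adjusted p = 0.193). The 6 complex V genes at an unadjusted p of 0.05 or less all lay above 0. None of the 12 assembly factors was called, and their median log2 fold change was 0.08. Sdhf4 had 563, 565 and 503 normalized counts in controls and 668, 578 and 527 after irradiation, which overlapped (0.12 ± 0.14).

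The larval calls rested on all 6 libraries. Without control replicate 1, 2 or 3 the number of genes called was 1, 3 and 8, and without irradiated replicate 1, 2 or 3 it was 4, 5 and 2. Qcr6-1 stayed called in every case (adjusted p = 0.0108 to 0.0359), whereas Ucri was lost in every case (0.0859 to 0.14). Ndua3 was lost without control replicate 1 or 2 or irradiated replicate 1 or 3, Sdhb-1 without control replicate 1 or 2 or irradiated replicate 3, Cx6b1 without control replicate 1 or 3 or irradiated replicate 3, and Cox6a without control replicate 1, with adjusted p of 0.0516 to 0.0989. Cx7a2 was gained without control replicate 3 (adjusted p = 0.018). The median log2 fold change moved less, between 0.26 and 0.37. DESeq2 called 19 of the 75, and the fit on the 6 larval libraries alone called 2.

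**Figure D3:**
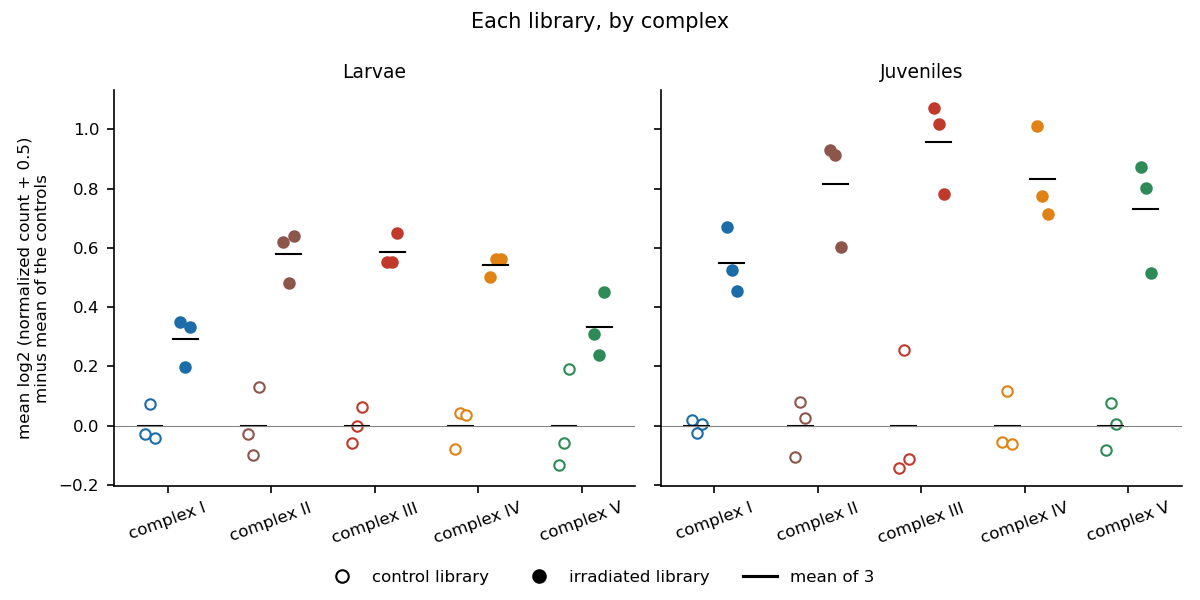
Mean log2 normalized count of the subunits of each complex in every library, minus the mean of the 3 controls of its stage (vertical axis), for larvae at left and juveniles at right. Open circles are control libraries, filled circles irradiated libraries, and bars the mean of 3. Filled circles lie above the open circles of their complex in every panel, at 0.20 to 0.65 in larvae and 0.45 to 1.07 in juveniles.

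Larvae and juveniles share no libraries in these comparisons, and their calls were set side by side. The calls are not independent, because a shared estimate of each gene's spread came from all 12 libraries. All 11 genes called in larvae were also called in juveniles, which is 100% of the larval and 19.6% of the juvenile calls. In juveniles 74.7% of the 75 genes were called, so a large overlap was likely. Of all genes tested, 0.895% were called higher in both. They were Ndua3 and Ndua6 of complex I, Sdha and Sdhb-1 of complex II, Qcr2, Qcr6-1, Qcr7-1 and Ucri of complex III, and Cox6a, Cx6b1 and Cx6c1-1 of complex IV. Across the 63 subunits, which are not independent replicates, the larval and juvenile log2 fold changes had a Pearson correlation of 0.56, given as a description. Complexes II, III and IV had larger medians than I and V in larvae (0.58, 0.56 and 0.53 against 0.28 and 0.34) and in juveniles (0.82, 0.99 and 0.93 against 0.55 and 0.72). These differences between complexes were not tested.

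Whether juveniles and larvae differed in their response was tested directly, as the juvenile minus the larval log2 fold change. Of the 75 genes, 1 (1.33%) was called by edgeR's quasi-likelihood test, below the 3.47% of all genes tested, and DESeq2 called 6. It was Nduaa (SCA08304, on chr5A_Sc2), an accessory subunit of complex I known in mammals as NDUFA10. Nduaa had 1570.1, 1799 and 1543 normalized counts in control larvae and 1895, 1649 and 1759 in irradiated larvae, which overlapped. In juveniles it went from 1405, 1289.5 and 1414 to 2435, 2342 and 2314, without overlap. The log2 fold change was 0.11 ± 0.11 in larvae and 0.79 ± 0.11 in juveniles, and their difference 0.68 ± 0.15 (adjusted p = 0.0331). The call was lost without any 1 of 9 libraries, with adjusted p of 0.0603 to 0.0855. It stayed without control larvae replicate 3, irradiated larvae replicate 1 or irradiated juveniles replicate 3. Scaled by library totals only, the difference was 0.61 and was not called (adjusted p = 0.0789).

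The difference was above 0, meaning a larger value in juveniles, for 68 of the 75 genes, compared with 47.6% of all genes tested, and its median was 0.31 against −0.04. Among the genes chosen for detail in this comparison, the largest uncalled difference was that of Ndua5 (0.61 ± 0.17, adjusted p = 0.0751). Atpg-1 (0.60 ± 0.18, adjusted p = 0.0895) came next. After it came At5g3-1 (0.52), Cox5a-1 (0.51), Atpb (0.45), Cy1 (0.44) and Cox41 (0.41), none called by edgeR. Members not chosen for detail reached larger uncalled values, up to 0.82 in complex I and 1.24 among the assembly factors. DESeq2 called Ndua5 and Atpg-1 (adjusted p = 0.0285 and 0.0351), and edgeR called Ndua5 without control larvae replicate 3 (adjusted p = 0.0401). Smaller differences were found for Atpa (0.33), Ucri (0.32), Nduv1-1 (0.29), Sdhb-1 (0.24), Ndus2-1 (0.19) and Sdhf4 (0.34). For Cx7a2, Ndus1 and Qcr8 the difference lay near 0 (0.05 ± 0.20, 0.02 ± 0.20 and -0.02 ± 0.24), with 95% intervals of -0.38 to 0.48, -0.42 to 0.46 and -0.54 to 0.50. By edgeR's test, a call in juveniles without one in larvae was accompanied by a called difference for Nduaa alone, and the dose differed as well as the stage.

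The controls of both stages show how the chain genes differ between larvae and juveniles without irradiation. Of the 75 genes, 28 were higher and 7 lower in control juveniles (edgeR's quasi-likelihood test), where 62.6% of all genes were called, 32.8% higher and 29.8% lower. The share of the 75 called higher, 37.3%, lay close to that of all genes, and the share called lower, 9.33%, lay below it. Among 63 subunits 28 were higher and 1 was lower, and among 12 assembly factors none was higher and 6 were lower. The medians were 0.27 for the subunits, −0.41 for the assembly factors and 0.03 for all genes tested, and the difference between subunits and assembly factors was not tested. These comparisons share the control libraries with those of irradiation, so their overlap is not given.

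The largest log2 fold changes were those of Ndub3-1 and Ndub1, accessory subunits of complex I. Ndub3-1 had 53.5, 68.1 and 42.5 normalized counts in control larvae and 202, 139 and 157 in control juveniles, 3.03-fold higher (1.60 ± 0.28, adjusted p = 0.000257). Ndub1 went from 151, 144 and 197 to 545, 438 and 518, 3.04-fold higher (1.60 ± 0.19, adjusted p = 7.97e-06). Neither gene overlapped between the stages, and for Ndub1, most of whose reads were intronic, exon reads alone gave 1.44. Ndub3-2, the gene of that subunit with more reads, was not among the 6 largest rises. Qcr8 of complex III went from 552, 465 and 693 to 1064, 1498 and 1278, 2.24-fold higher (1.17 ± 0.17, adjusted p = 6.37e-05). Cox7c and Cx7a2, both small membrane subunits of complex IV, rose 1.9-fold and 1.79-fold (0.93 ± 0.24 and 0.84 ± 0.14, adjusted p = 0.00441 and 0.000181). For Cox7c control larvae replicate 3 held 422 normalized counts against 232 and 223 in the other controls, and the control juveniles, at 569, 581 and 532, exceeded all of them. Sdhb-1 of complex II rose 1.72-fold (0.78 ± 0.13, adjusted p = 0.000216), from 1214, 1063 and 1371 to 1982, 2224 and 2079.

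Most core and catalytic subunits were not called between the stages. Atpa, Atpb and At5g3-1 had log2 fold changes of -0.00 ± 0.14, -0.03 ± 0.14 and -0.02 ± 0.14, with 95% intervals of -0.31 to 0.31, -0.33 to 0.26 and -0.33 to 0.29. Nduv1-1 (0.04), Ndus2-1 (-0.10), Ndus1 (0.27), Ndua5 (-0.02), Cy1 (0.08), Ucri (-0.11), Atpg-1 (-0.21) and Cox41 (0.28) were not called either, though Ndus1 was without control larvae replicate 3 (adjusted p = 0.0115). Of the 7 core subunits of complex I, 1 was called (Ndus3, 0.48), against 14 of the 28 accessory subunits, all higher. Complex IV had 6 of 10 genes higher and complex V 4 of 10. Over all genes tested, 32.8% were called higher, and the share in complex V lay near that. Cox5a-1, at 1533, 1680.5 and 1617 in larvae and 1895, 2224 and 1786 in juveniles, was called at the threshold (0.29 ± 0.12, adjusted p = 0.0486) and was lost without control larvae replicate 1, 2 or 3 or control juveniles replicate 1 or 2 (adjusted p = 0.071 to 0.203). Qcr2 was the single subunit that fell, from 1677, 1769 and 1658 to 1319, 1590.0 and 1225 (-0.31 ± 0.13, adjusted p = 0.0493), and was lost without control larvae replicate 1, 2 or 3 or control juveniles replicate 1 or 3 (0.0564 to 0.184).

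Apart from Qcr2, the genes that fell were complex I assembly factors and Atp5s. Nduf7 went from 42.4, 49.4 and 52.9 normalized counts in control larvae to 15.6, 10.9 and 17.2 in control juveniles, a fold change of 0.309 (-1.69 ± 0.29, adjusted p = 0.000227). Nduf3 went from 48, 42.8 and 38.4 to 15.6, 17.1 and 24.7 (-1.12 ± 0.30, adjusted p = 0.00579), and Nduf5-3 from 90.4, 101 and 103 to 51.9, 67 and 58.4 (-0.74 ± 0.21, adjusted p = 0.00694). None of the 3 overlapped between the stages. Atp5s went from 194, 258 and 247 to 167, 119.9 and 139 (-0.72 ± 0.17, adjusted p = 0.00283), also without overlap. Nduf6-1 and Nduf6-2 were called lower from few reads. Nduf6-1 held 0 reads in control juveniles replicate 2 and overlapped between the stages. The Sdhf genes, which serve complex II, were not called. Sdhf4 had a log2 fold change of -0.11 ± 0.14.

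**Figure D4:**
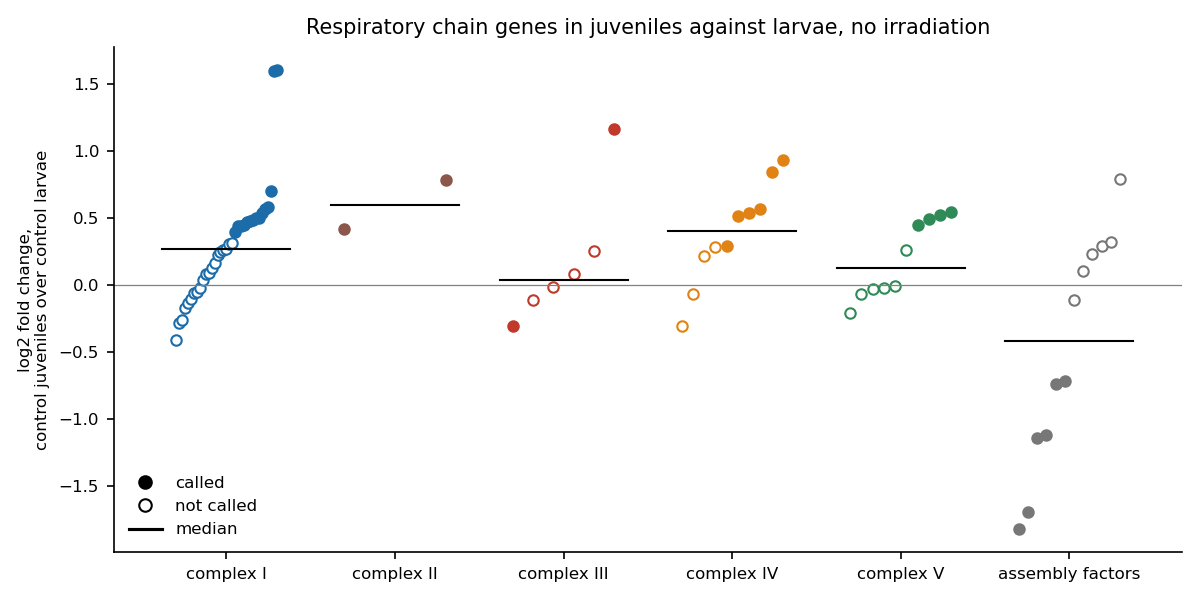
Log2 fold change of control juveniles over control larvae (vertical axis) for each of the 75 genes, by complex, with genes sorted by value within a complex. Filled points passed the threshold of an adjusted p of 0.05, open points did not, and bars are medians. The subunits reach up to 1.60 (Ndub1 and Ndub3-1), and the called assembly factors all lie below 0.

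Other genes of the pathway were read from lists of names. Subunits whose names the rule did not cover were Acpm, At5f1, Dhsd-1 and C560. Dhsd-1 and C560, the membrane anchors of complex II, rose in larvae (log2 fold changes 0.65 and 0.64, adjusted p = 0.00859 and 0.0161) and in juveniles (0.65 and 0.59, adjusted p = 0.00152 and 0.00447). Acpm, the acyl carrier protein of complex I, and At5f1, the stator subunit b of ATP synthase, rose in juveniles (0.83 and 0.67, adjusted p = 0.000896 and 0.00145) and were not called in larvae (0.29 and 0.33). The same 2 anchors were higher in control juveniles than in control larvae (1.17 and 1.58, adjusted p = 1.32e-06 and 2.08e-07). No name of the 13 mitochondrially encoded subunits was matched, and these are not analysed here.

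The enzymes that feed the chain were called in part. Of 17 tested genes of the citric acid cycle and pyruvate dehydrogenase, 2 rose in larvae and 11 in juveniles, with medians of 0.34 and 0.64 and no falls. The shares of all genes called higher were 1.87% in irradiated larvae and 10.8% in irradiated juveniles. Mdhm, malate dehydrogenase, and Odo2, of the oxoglutarate dehydrogenase complex, were the larval ones (0.52 and 0.67, adjusted p = 0.0294 and 0.0153). In juveniles Suca, of succinyl-CoA synthetase, rose most (1.35, adjusted p = 7.2e-05) and differed from larvae (0.91). Of 8 tested carriers and channels, 1 rose in larvae and 6 in juveniles. Vdac2-1, an outer membrane channel, was called in both (0.40 and 0.67, adjusted p = 0.0491 and 0.00078). Mpc1 and Mpc2, which import pyruvate, rose in juveniles (0.92 and 0.74, adjusted p = 0.00573 and 0.000664). Between the stages without irradiation, 11 of the 17 cycle genes were lower in juveniles and none higher, with a median of −0.47, where 29.8% of all genes were lower.

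Of 31 further assembly factors of the chain, 1 rose in larvae (Cox20, 0.61, adjusted p = 0.0439) and 15 in juveniles, with medians of 0.03 and 0.66, and none fell. Over all genes tested, 1.87% were called higher in irradiated larvae and 10.8% in irradiated juveniles. Sco1, a copper chaperone for complex IV, rose by 1.20 in juveniles (adjusted p = 3e-04) and was 1.99 lower on the log2 scale in control juveniles than in control larvae (adjusted p = 1.93e-07). Between the stages 16 of the 31 were lower and 1 higher, against 29.8% and 32.8% of all genes. The 72 genes of the mitochondrial ribosome, which translates the mitochondrially encoded subunits, had no call in larvae (median −0.03, with 3 at an unadjusted p of 0.05 or less) and 34 rises in juveniles (median 0.57). Their juvenile minus larval difference was called for 4 (5.56%, against 3.47% of all genes tested). It was above 0 for all 72, compared with 47.6% of all genes tested, with a median of 0.61. Of 11 tested genes for mitochondrial gene expression, Lpprc-1, Nrf1-1 and Tfam rose in juveniles (1.06, 0.50 and 0.72, adjusted p = 0.00107, 0.0456 and 0.0383) and none was called in larvae.

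**Figure D5:**
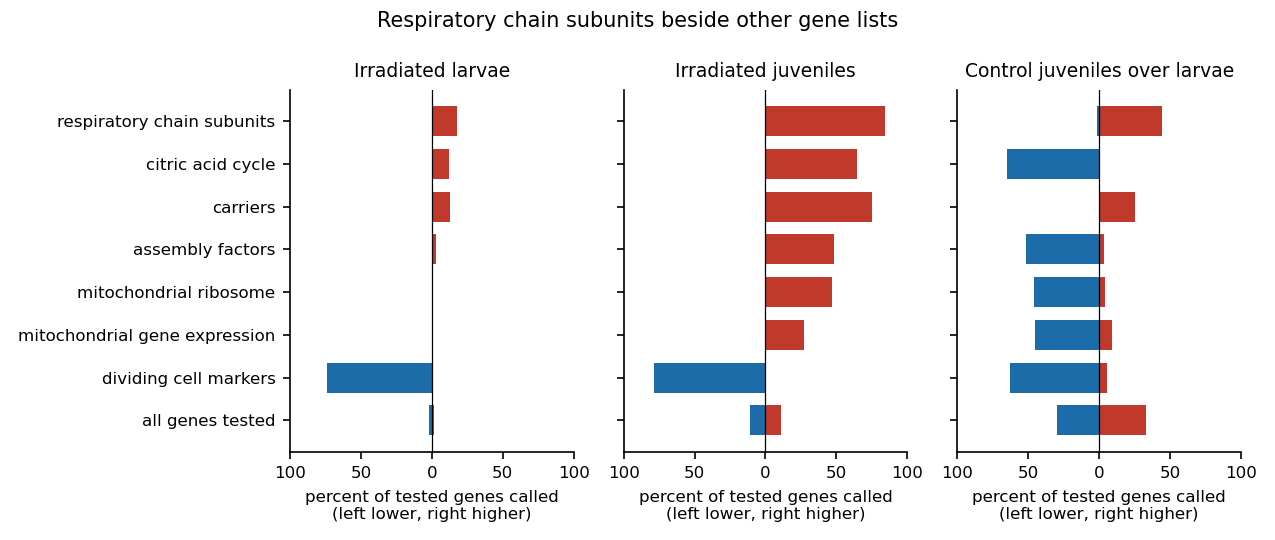
Percent of the tested genes of each list called higher (right of 0) or lower (left of 0), in irradiated over control larvae, irradiated over control juveniles and control juveniles over control larvae. The subunits are called higher in 17.5% and 84.1% of cases after irradiation in larvae and juveniles, and the dividing cell markers lower in 73.7% and 78.9%. The shares of all genes tested are 1.87% and 10.8% higher, and 2.05% and 11.1% lower.

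Markers of cell types moved beside these results. Summed normalized counts of the 21 dividing cell markers went from 4758 to 5357 in control larvae down to 2142 to 2313 in irradiated larvae, and from 2744 to 3743 down to 1756 to 1917 in juveniles, with no overlap in either stage. Of 44 tested ciliated cell markers, 15 rose and none fell in irradiated juveniles (34.1% against 10.8% of all genes higher), and the sum of the 50 genes went from between 94721 and 100081 to between 128766 and 155343. In larvae none rose and 1 fell, and the sums overlapped (94153 to 103153 and 86729 to 106332). Leaving out the Dyhc, Rspo3 and Rspry genes, which the name rule also took, 13 of 32 rose in juveniles. Of 54 tested muscle markers, 6 rose and 6 fell in juveniles, which is 11.1% each way and close to the 10.8% and 11.1% of all genes, with sums of 62496 to 67516 in controls and 76454 to 78724 after irradiation, and the sums overlapped in larvae (27574 to 29758 and 22243 to 33345). Tpmt and Mlec genes are in that list by name only. Without them 2 of 48 tested markers rose (4.17%) and 6 fell (12.5%) in juveniles, the latter close to the 11.1% of all genes. Of 8 tested neuron markers none rose and 1 fell in juveniles, which is 12.5% and close to the 11.1% of all genes lower. None was called in larvae. Defining markers listed at 0 in a whole group numbered 0 to 4 in each list. The part of these markers in the results on the respiratory chain was not tested.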

How the data were processed

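RNA-seq read pairs of 12 libraries were mapped by the authors to the v2.0 genome with CLC Genomics Workbench, whose version is not given in the sources used here. The deposited tables hold, per library and gene, whole-number counts of reads (exon plus intron reads), unique and exon reads, and TPM and RPKM values that the authors' software calculated from exon reads and exon length. Total counts were tested here, TPM was used to compare levels between genes, and RPKM was used to pick the most abundant gene of each complex. The 75 genes and all lists were chosen with earlier results of these data known, so no p-value is given for a list.

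Counts were fitted in R 4.3.3 with edgeR 4.0.16: filterByExpr kept 20780 genes and left out 6683, libraries were normalized by TMM (factors 0.931 to 1.07), and all 12 libraries were fitted with 1 mean per group by the quasi-likelihood test, two-sided, with Benjamini-Hochberg adjustment over 20780 genes. The threshold for a call was an adjusted p of 0.05. To give normalized counts, the counts were divided by effective library sizes and multiplied by the mean of these, and errors of log2 fold changes are SE. The squared difference between replicates of a group was 8.75 to 52.7 times that of counting noise, so every replicate was kept as a sample of its own. Intervals have a confidence level of 95%. Total counts ranged from 7675726 to 26974509 per library. Mean log2 values per library used a pseudocount of 0.5.

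Genes given in detail were, in each comparison, the 6 largest rises and 6 largest falls among called members with a mean of at least 20 normalized counts, the members named Ndus1, Ndus2, Nduv1, Ucri, Cy1, Cox41, Cox5a, Atpa, Atpb and Atpg, and the gene of each complex with the highest mean RPKM. Any other gene was named after its values were seen. The alternatives were other scalings (library totals only, or the median-of-ratios method), other filters (a single count, or 10 counts in every library), other tools (DESeq2 1.42.0 and limma 3.58.1 voom), only the 6 libraries compared, a replicate block, thinning to the smallest total, unique reads, exon reads, leaving out each library, and an adjusted p of 0.01 or less. The marker lists without the Tpmt, Mlec, Dyhc, Rspo3 and Rspry genes were added after seeing the data. Sequences were not used here.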

Additional observations from a re-analysis of the deposited data

Results flagged for a closer look

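Nduaa, an accessory subunit of complex I, differed between larvae and juveniles, which were given different doses, in its response to irradiation, by the test of that difference in edgeR's quasi-likelihood fit. Its juvenile log2 fold change exceeded the larval one by 0.68 (0.79 against 0.11, adjusted p = 0.0331). The irradiated juveniles, at 2435, 2342 and 2314 normalized counts, lay above all 3 juvenile controls (1405, 1289.5 and 1414). In larvae the irradiated libraries (1895, 1649 and 1759) overlapped the controls (1570.1, 1799 and 1543). It was the 1 gene of the 75 (1.33%) called in that test, a share below the 3.47% of all genes tested. The call was lost without any 1 of 9 libraries (adjusted p = 0.0603 to 0.0855), with library totals only (0.0789) and with the replicate block (0.0614).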

How the results depend on the processing

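The median log2 fold change of the 75 genes kept its sign in every comparison and alternative run, and it ranged without single libraries from 0.26 to 0.37 in larvae, 0.55 to 0.71 in juveniles, 0.25 to 0.39 for the difference and 0.16 to 0.28 between the stages. Moves larger than the spread between replicates were, between the stages, from 0.25 to 0.21 with no filter and to 0.33 with at least 10 counts in all 12 libraries, and in each comparison at 1 end of that range. Counts of calls depended more on the setting. The 11 members called in larvae became 19 with DESeq2, 2 with only the 6 libraries compared and 1 at an adjusted p of 0.01 or less, and 1 to 8 without single libraries. The 56 in juveniles became 42 to 57 and the 35 between stages 26 to 35 without single libraries. The 1 member called for the difference became 6 with DESeq2, 2 with at least 10 counts in all 12 libraries and with voom, 0 with library totals only and at 0.01, and 0 to 2 without single libraries. Over all genes, the 814 calls in larvae became 1654 with DESeq2, 287 with only the 6 libraries compared and 164 at 0.01 (306 to 589 without single libraries). The 4543 in juveniles became 2236 at 0.01 (2974 to 3739 without single libraries). The 722 for the difference became 1497 with DESeq2 and 10 at 0.01 (210 to 789 without single libraries), and the 13012 between stages became 7798 with at least 10 counts, where fewer genes were tested (12126 to 12732 without single libraries). With library totals only, the larval calls split 590 higher and 366 lower, against 389 and 425, and those of the difference 264 and 394, against 389 and 333. Beyond this the causes were not tested.

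Same-numbered replicates did not deviate together (correlations of −0.06 to 0.05), and a sample shares only a number. With that number as a replicate block, members called were 8 in larvae, 53 in juveniles, 0 for the difference and 32 between the stages, and genes called for the difference were 470.

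Directions that turned were all of values near 0 that were not called. For control juveniles over control larvae, Atpa gave 0.0102 with median-of-ratios size factors, 0.010 with DESeq2, 0.0717 with at least 10 counts, 0.0005 with only the 6 libraries, 0.0040 thinned and 0.0040 with unique reads, and 0.0181 with exon reads. With at least 10 counts At5g3-1 gave 0.0579, Atpb 0.0441 and Ndua5 0.0586, and Nduv1-1 gave −0.0062 with no filter. For the difference, library totals gave −0.0130 for Cx7a2 and −0.0474 for Ndus1. Ndus1 gave −0.0000 with at least 10 counts, −0.0012 with voom and −0.0146 thinned, and Qcr8 gave 0.0475 thinned. Without single libraries the stage values ran from −0.1007 to 0.1148 for Atpa, −0.1006 to 0.0893 for At5g3-1, −0.1105 to 0.0741 for Atpb, −0.1208 to 0.0108 for Ndua5, −0.1403 to 0.1925 for Cy1 and −0.0094 to 0.0638 for Nduv1-1. The difference ran from −0.1249 to 0.1532 for Cx7a2, −0.1508 to 0.1194 for Ndus1 and −0.1843 to 0.1164 for Qcr8. The larval value of Ndua5 ran from −0.0316 to 0.1108.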
